A study of Mus musculus with 36 samples.

Results

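Among the 219945 introns counted in 36 mouse RNA-seq libraries, 18 pairs of introns shared their 3′ end and differed at the 5′ end by 3 to 60 bases. They hold 35 introns at 17 3′ ends in 17 genes, with Stard6 in 2 pairs. Members were found from the coordinates alone: same chromosome, same strand, same 3′ end. Use of the upstream site was the count of spliced reads over the longer intron divided by that over the shorter, since a read over the longer intron is counted at both. The difference between both counts is the number of reads that leave the exon at the downstream site. A read that jumps over both introns from an exon farther upstream counts as upstream.

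The common (CMP), the granulocyte-monocyte (GMP) and the megakaryocyte-erythroid (MEP) type of myeloid progenitor cell were sorted from 3 wild-type (WT) and 3 Zrsr2-deficient (KO) male C57BL/6 littermates, 18 libraries in all. Embryonic fibroblasts (MEF) came from 3 WT and 3 KO male C57BL/6 embryos. Bone marrow cells without lineage markers and with Kit (Lin-Kit+), of WT or KO C57BL/6 mice, were cultured ex vivo and carried a control hairpin RNA or a hairpin against Zrsr1, sh1 or sh10, in experiments 1 and 2, giving 12 libraries. The labels do not give ages or the deleted part of Zrsr2, and mice of the Lin-Kit+ experiments are not told apart. For Lin-Kit+ cells a p-value therefore speaks only to the spread among these libraries, which may be technical.

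Depth, as spliced counts per library, was 44083233 to 84832431 for the progenitors, 43514139 to 61124920 for MEF, and 30481450 to 43345548 for cultured Lin-Kit+ cells. Zrsr2 had 0 to 5 spliced counts in each KO progenitor library, 0 to 20 in KO MEF and 3 to 57 in KO Lin-Kit+ cells, against 725 to 2147 in WT libraries. Fibroblast markers (8 genes, such as Col1a1) summed to at least 63160 CPM (spliced counts scaled to the library's total) in WT MEF and at most 155.5 in any progenitor or Lin-Kit+ library. GMP markers (7 genes, such as Elane) summed to 26350 to 31650 CPM in WT GMP and 36.33 to 56.17 in WT MEP. Erythroid markers summed to 4790 to 5549 CPM in WT MEP and at most 1446 in WT CMP. Megakaryocyte markers did not follow the MEP label, with 34.14 to 62.42 CPM in WT MEP against 809.2 to 1148 in WT CMP. Lin-Kit+ cells held markers of mature cells: 4059 to 33050 CPM for neutrophils, at most 160.5 in sorted progenitors, and 3611 to 12800 for mast cells and basophils, at most 332.2 in sorted progenitors. Neutrophil markers moved with the sh10 hairpin, with 15310 to 33050 CPM in WT cells against 5471 to 6273 with the control hairpin and 5462 to 6180 with sh1. GMP markers were 2478 to 4640 CPM with either hairpin against Zrsr1 and 5703 to 6710 with the control in WT cells.

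A 5′ splice site is the boundary at which an exon ends and an intron begins. The spliceosome reads the last exon bases and the first intron bases there, and most introns begin with GT. Where a single exon can end at either of a pair of nearby sites, the choice adds or removes a short stretch of RNA. Where each site belongs to an exon of its own, the choice is between exons, and for first exons between transcription starts. Zrsr2 and its paralogue Zrsr1 are splicing factors best known for recognising the 3′ splice site of the minor, U12-type introns.

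Read against the GENCODE M21 annotation, the pairs were mostly not one exon with a choice of ends. In 14 of 18 pairs the downstream site ended a separate first exon of another transcript, 21 to 58 bases long (median 33.5) and beginning 2 to 26 bases after the upstream site. In 3 pairs, Abi1, Tnnt3 and Apbb2, it ended an internal exon annotated as separate, of 15, 19 and 5 bases. In Apbb2 only 2 bases lie between the annotated exons, which are separate by annotation and not shown to be spliced apart. In 1 pair, Cep112, an exon of one transcript ran past the upstream site to the downstream site. The pairs are therefore called here pairs with a shared 3′ end, not alternative 5′ splice sites. Distances ran from 7 to 60 bases with a median of 49, 14 were 40 bases or more, and 5 were multiples of 3. In 15 pairs the shorter intron was intron 1 of its transcript, and in 12 pairs both sites lay in a 5′ UTR. 17 of the pairs were in protein-coding genes, and Gm35766 is a lincRNA.

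**Figure D1:**
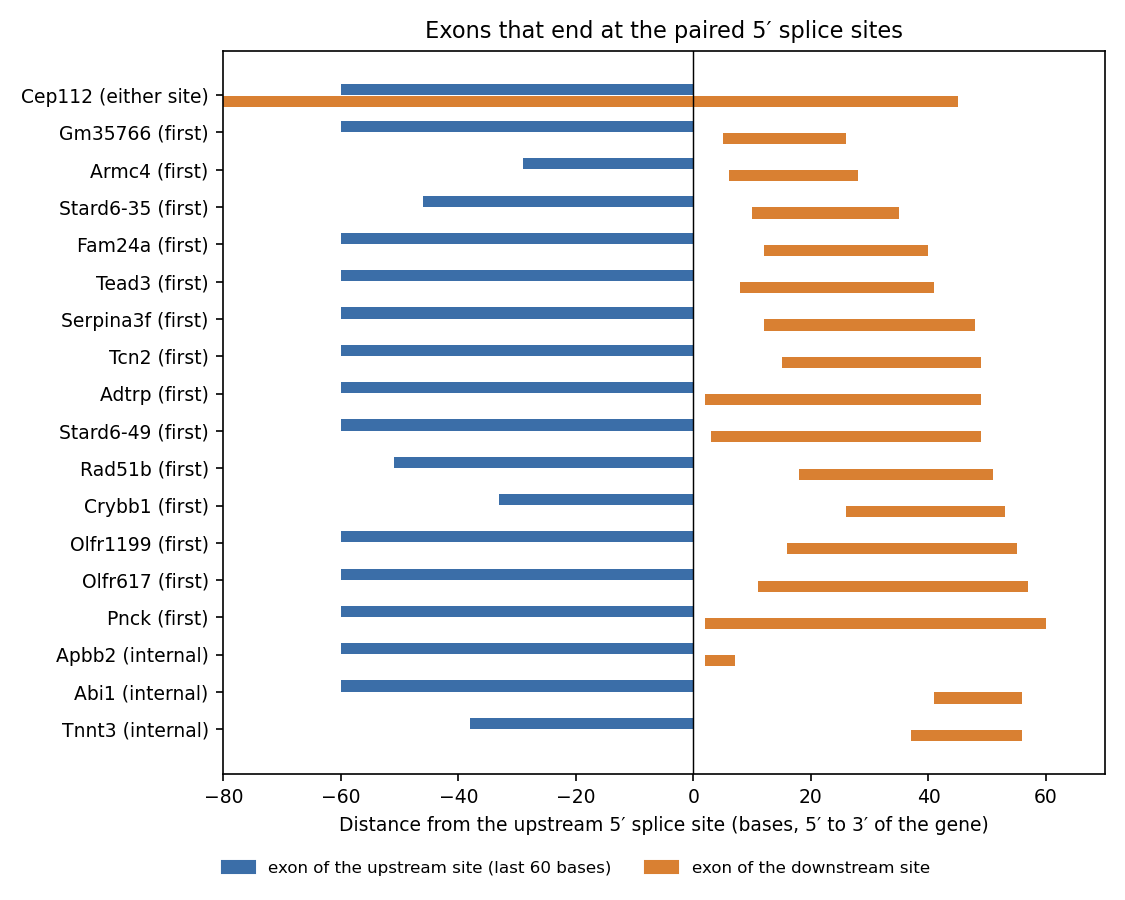
Exons that end at the paired sites in the 18 pairs, drawn to scale in bases from the upstream site (vertical line at 0). Blue bars are the exon of the upstream site, cut at 60 bases, and orange bars the exon of the downstream site, which in Cep112 runs on past the left edge. In 17 pairs a gap of 2 to 41 bases separates the exons, and in Cep112 the orange exon crosses the line.

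The deposited list holds few of the annotated pairs. GENCODE M21 has 3742 pairs of introns with a shared 3′ end and 5′ ends 3 to 60 bases apart, and 3648 of them are a single exon that ends at either site. Both introns were listed for 1 of these 3648 (0.0274%), the longer alone for 793, the shorter alone for 1838 and neither for 1016. For 80 annotated pairs with a separate first exon, both were listed in 14 (17.5%). For 14 with a separate internal exon, both were listed in 3 (21.4%). Over all kinds both were listed for 18 of 3742 (0.481%), so the results below cover a small and particular part of the annotated pairs.

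**Figure D2:**
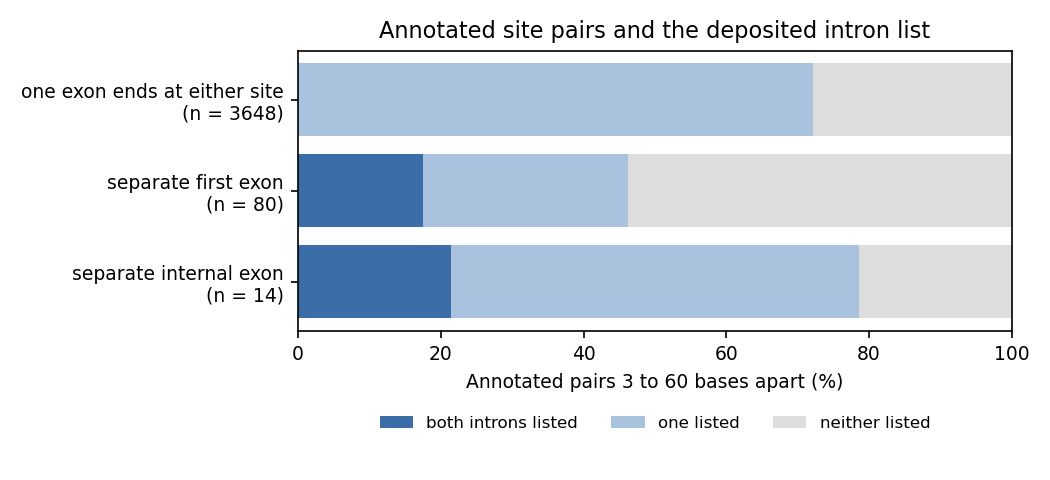
Share of annotated pairs 3 to 60 bases apart whose introns are both listed, one listed or neither listed in the deposited tables, by kind of pair, in percent of the number n beside each bar. The share with both listed is 0.0274% for single exons that end at either site, 17.5% for separate first exons and 21.4% for separate internal exons.

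The letters at the sites were read from GENCODE transcripts and RefSeq's promoter table (GRCm38.p6). Intron bases were readable at 9 upstream and 7 downstream sites, and each of these introns begins with GT. Windows of 26 bases are shown for the pairs whose sites could both be read and whose reads are described below, with the last 20 exon bases in lower case and the first 6 intron bases in capitals, 5′ to 3′ along the gene (GRCm38):
Rad51b upstream, chr12:79297313-79297338, plus strand: gctgctcgcacttttcgcggGTAATT
Rad51b downstream, chr12:79297364-79297389, plus strand: agttccacgctgctgacctgGTACTG
Serpina3f upstream, chr12:104214601-104214626, plus strand: cctttgctccagctctgcagGTAAGG
Serpina3f downstream, chr12:104214649-104214674, plus strand: acagaaggagtcttcactggGTTTGT
Tead3 upstream, chr17:28350603-28350628, minus strand: ccccccggagctcggagcagGTAAGC
Tead3 downstream, chr17:28350562-28350587, minus strand: cggaggcctcgcgcgcagagGTGACT
Crybb1 upstream, chr5:112255828-112255853, plus strand: ccgcctgtccaccaatacagGTAAGA
Crybb1 downstream, chr5:112255881-112255906, plus strand: agaggaggacagaaacagagGTGGGG
Fam24a upstream, chr7:131334590-131334615, plus strand: catcttaagtgacctaacagGTATGT
Fam24a downstream, chr7:131334630-131334655, plus strand: tatcttaagtgacctaacagGTATGT
In Fam24a the last 19 exon bases before both sites are identical, as are the 6 intron bases, while in the other 14 pairs compared 0 to 3 exon bases before the sites are identical.

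The internal exons of the coding pairs are very short and are shown whole, with the end of the Tcn2 first exon that carried reads, in lower case (GRCm38, minus strand but for Tnnt3):
Abi1 downstream exon, chr2:22971027-22971041: aaattgtggcaggaa
Tnnt3 downstream exon, chr7:142507845-142507863: aagaagaaccaacagtcca
Tcn2 downstream exon, last 20 bases, chr11:3931927-3931946: ccagagcagcaacggtgcgg
The Apbb2 downstream exon (chr5:66362711-66362715) is annotated as 5 bases beginning 2 bases after the upstream site. The upstream window shows the overlap, with the first 6 bases of the longer intron in capitals:
Apbb2 upstream, chr5:66362712-66362737, minus strand: gtgggccgagacaacggccgGTGAGT
Adtrp and Pnck likewise have a gap of 2 bases between the exons.

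Reads at the 18 pairs were scarce outside a few genes. All pairs together had 34377 spliced reads at the shorter intron in the 36 libraries, or 34187 with the reads shared by both Stard6 pairs taken once, and 601 left at the downstream site, 549 of these in Rad51b. 10 pairs with reads had no downstream read, 7 had some, and Olfr1199, an olfactory receptor gene, had no read in any library. 7 pairs had fewer than 50 reads in all. Abi1, which encodes an adaptor of the WAVE actin-regulating complex, had 17716 reads with 0 downstream. Tcn2, which encodes the vitamin B12 carrier transcobalamin, had 11117 with 15 downstream. Tead3, a TEAD transcription factor that acts with the Hippo coactivators, had 1619 with 0 downstream. Serpina3f, a serine protease inhibitor, had 1255 with 1 downstream. Apbb2, an adaptor that binds the amyloid precursor protein, had 1086 with 0 downstream.

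Rad51b had 608 reads over all libraries and is described below. The remaining pairs had at most 250. Tnnt3, which encodes the fast skeletal muscle troponin T, had 250 with 2 downstream. Pnck, a calcium/calmodulin-dependent kinase, had 170 with 3 downstream, and 162 of its reads jumped over both sites to a listed intron that begins farther upstream. The centrosomal gene Cep112 had 103, of which 96 jumped over both sites, 5 used the upstream and 2 the downstream site. The lens crystallin gene Crybb1 had 45, Gm35766 13, Fam24a 9, Adtrp 3, Armc4 2 and Olfr617 1, with 0 downstream in each. All 9 reads of Fam24a jumped over both sites. Reads of Serpina3f and the olfactory receptor genes may be shared with similar copies of their families, and Adtrp, Apbb2 and Fam24a overlap genes on the other strand, whose reads cannot be told apart without strand.

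Stard6, which encodes a lipid-transfer protein of the START family, has 3 listed first exons in a row on chromosome 18. Of its 190 reads at the shortest intron of the pairs, 161 left from the first exon, 29 from the second and 0 from the third. The 29 reads were spread over 10 libraries, and 10 of them came from the WT control hairpin library of experiment 2, which had 13 reads at the pair. A further 7 came from WT GMP replicate 2, where all 7 reads left from the second exon. No set kept Stard6, since its highest count was 24 and most libraries were lower.

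A minimum of 20 reads at the shorter intron in each library of a set left few pairs. The 18 progenitor libraries kept 1 pair, Abi1. MEF kept 6, namely Tcn2, Serpina3f, Tead3, Abi1, Apbb2 and Tnnt3. Lin-Kit+ cells kept 2, Tcn2 and Abi1, and the 12 WT libraries of MEF and progenitors kept 1, Abi1. In the kept pairs the downstream site took 0 of 8318 reads in progenitors, 4 of 8944 (0.0447%) in MEF and 11 of 11643 (0.0945%) in Lin-Kit+ cells. Thus, between the paired sites, the kept pairs used the upstream site for nearly all their reads in every set. Listed introns that begin farther downstream share the 3′ end of some kept pairs, and their reads are not part of these shares. Over all libraries such reads numbered 1266 for Abi1, 375 for Tcn2, 131 for Tead3, 62 for Apbb2 and 44 for Tnnt3. No such intron was listed for Serpina3f.

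Within its pair, Abi1 used the upstream site alone in all 36 libraries. Its shorter intron had 340 to 626 reads in progenitors (median 461.5), 369 to 661 in MEF (median 533) and 313 to 641 in Lin-Kit+ cells (median 560.5). A count of 0 among 8318, 3154 and 6244 reads allows a downstream share of up to 0.0361%, 0.0951% and 0.048%. Limits and intervals here cover counting error only, since the reads carried no molecular identifiers. Tead3 in MEF had 0 downstream among 1465 reads (up to 0.205%), and Apbb2 0 among 1057 (up to 0.284%). Whether reads that leave exons as short as 15 bases (Abi1) or 5 bases (Apbb2) could be aligned was not tested. The limits therefore hold for counted reads, not for use of such exons.

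Tnnt3 in MEF gave 1 downstream read of 30 in KO replicate 6 and 1 of 31 in WT replicate 6, and 0 in the other 4 libraries. Serpina3f gave its single downstream read in WT CMP replicate 1, among 78. None of these pairs had the 10 reads of the less used site that a test required, so no test of site use was made in MEF.

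Tcn2 in Lin-Kit+ cells was the only kept pair with 10 or more reads at the less used site. In WT cells with the control hairpin, 2 of 191 reads left at the downstream site in experiment 1 (1.05%, exact 95% interval 0.127 to 3.73%) and 9 of 759 in experiment 2 (1.19%, 0.544 to 2.24%). The other 10 Lin-Kit+ libraries, KO cells and cells with hairpins against Zrsr1, had 0 of 4449 reads. In single libraries of these 10, a count of 0 allows 0.383 to 2%. The 2 libraries of WT control cells are thus the only Lin-Kit+ libraries with a downstream read. The part in this of the neutrophil and GMP markers, which differ between hairpins, was not tested. Outside Lin-Kit+ cells, Tcn2 gave 2 downstream reads in WT GMP replicate 1 (of 277) and 2 in KO MEF replicate 6 (of 530).

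This difference did not pass the test over all pairs. In edgeR's quasi-likelihood test on upstream and downstream counts over 3082 pairs with a shared 3′ end at any distance, 0 pairs (0%) were called between KO and WT control cells at an adjusted p below 0.05, and 35 had an unadjusted p below 0.05. For Tcn2 the unadjusted p was 0.0231 and the edgeR adjusted p was 1. For hairpins against control in WT cells, 0 of 3082 (0%) were called and 54 had an unadjusted p below 0.05. For Tcn2 the edgeR p was 0.00691 and the adjusted p 1. Fitted as the only pair, without other pairs to share the spread or the adjustment, Tcn2 had an edgeR p of 0.0288 and 0.0206. Tcn2 passed the minimum of reads at the less used site only through WT control cells, which held all its downstream reads. All p-values for Tcn2 here are therefore a description. The size of the difference is given by the counts, since a ratio against 0 depends on the prior count.

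Tcn2 as a whole was higher in experiment 2, with 4.41 to 7.12 CPM in experiment 1 and 14.1 to 21.2 CPM in experiment 2. The ratio of experiment 2 to 1 was 2.78 to 4.11 in the 6 groups. The share of downstream reads was close in both experiments (1.05 and 1.19%), and the part of the experiment in it was not tested.

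Rad51b was the exception among the pairs, with most reads at the downstream site. It encodes a protein of homologous recombination repair. The upstream first exon spans chr12:79297282-79297332 and the downstream first exon chr12:79297351-79297383, both 5′ UTR. Over all libraries 59 of 608 reads (9.7%, exact 95% interval 7.47 to 12.3%) used the upstream site. Reads running from exon into intron, which are unspliced, were also more frequent at the downstream site: 276 against 11 in progenitors, 21 against 1 in MEF and 30 against 0 in Lin-Kit+ cells. The third listed first exon, ending 871 bases after the downstream site, joins the same 3′ end and had 623 reads, against 549 at the downstream site of the pair.

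No set kept Rad51b, as 12 of 18 progenitor libraries and none of the others reached 20 reads. In WT CMP the upstream site had 4 of 30, 0 of 36 and 4 of 26 reads in replicates 1 to 3, and in KO CMP 0 of 18, 6 of 27 and 6 of 70. In WT GMP it had 1 of 12, 2 of 48 and 5 of 33, and in KO GMP 2 of 12, 4 of 29 and 6 of 50. In WT MEP it had 0 of 27, 0 of 9 and 0 of 16, and in KO MEP 0 of 14, 2 of 21 and 6 of 22. Libraries of both genotypes overlapped in CMP, GMP and MEP, and WT MEP was the only progenitor group without an upstream read.

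As the mean of libraries, upstream use was 9.57% ± 8.35 (SD, n = 3) in WT CMP and 10.3% ± 11.2 in KO CMP, and 9.23% ± 5.57 in WT GMP and 14.2% ± 2.37 in KO GMP. It was 0% in WT MEP, where 0 of 52 reads allows up to 5.77%, and 12.3% ± 13.9 in KO MEP. The downstream exon therefore took most reads of the pair in each of the 6 groups.

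With 20 reads summed over each group as the minimum, 4153 pairs could be tested in progenitors. Between KO and WT, 0 pairs (0%) were called in CMP, GMP or MEP by edgeR, with 245, 113 and 142 at an unadjusted p below 0.05. For Rad51b the log2 odds ratio of upstream use, KO against WT, was 0.21 (SE 1.23) in CMP and 0.75 (SE 1.34) in GMP, with an edgeR adjusted p of 1 in both. In MEP the edgeR p was 0.0449 and the adjusted p was 1, and no size is given since WT MEP was at 0. The difference of the KO effect between the 3 progenitor types had an edgeR p of 0.218 (adjusted p = 1), with 0 of 4153 pairs called (0%) and 169 at an unadjusted p below 0.05.

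Between WT cell types, 33 of 4153 pairs (0.795%) were called for GMP against CMP, 202 (4.86%) for MEP against CMP and 172 (4.14%) for MEP against GMP. Rad51b was not among them. Its edgeR adjusted p was 1 for GMP against CMP, with a log2 odds ratio of 0.05 (SE 1.19). The edgeR adjusted p was 0.332 for MEP against CMP and 0.398 for MEP against GMP. The absence of upstream reads in WT MEP thus did not pass the test against CMP or GMP at this depth.

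**Figure D3:**
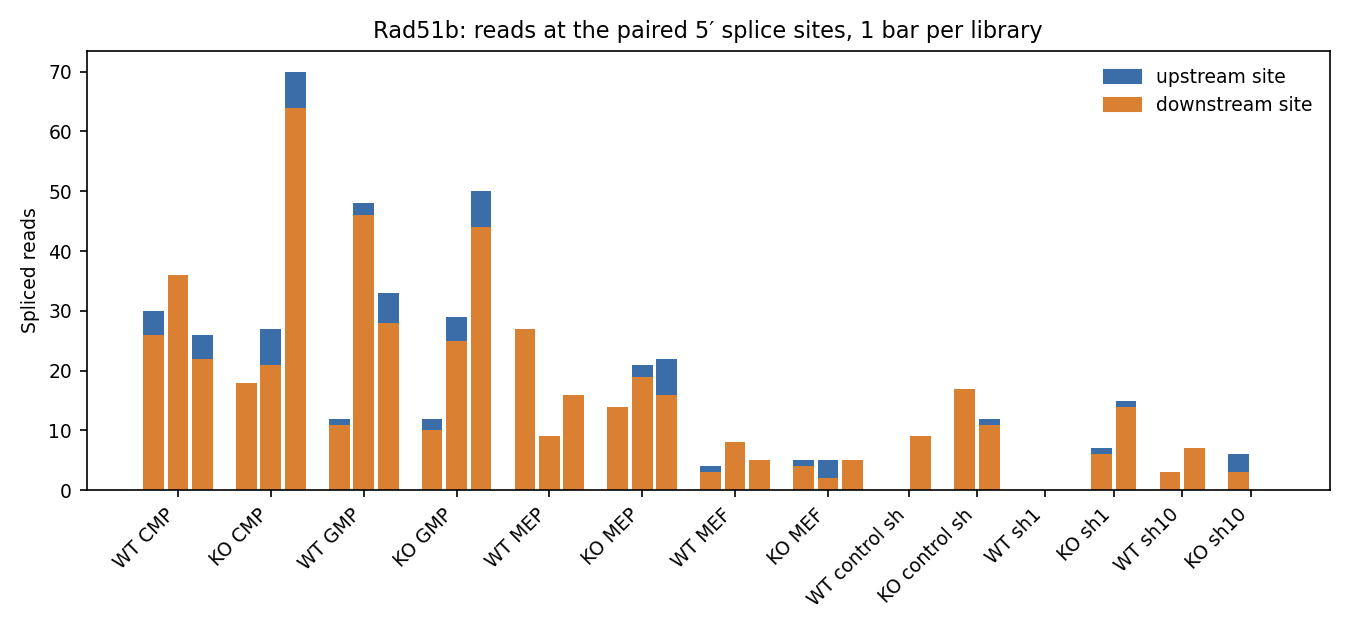
Spliced reads of Rad51b at the downstream site (orange) and upstream site (blue), stacked, 1 bar per library in replicate order and grouped by cell type, genotype and hairpin. Totals run from 0 to 70 reads, the downstream site holds most reads in all but a few low libraries, and the 3 WT MEP libraries have no blue part.

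In MEF, Rad51b had 4 to 8 reads per library, with upstream reads in 1 of 4 in WT replicate 4, 3 of 5 in KO replicate 5 and 1 of 5 in KO replicate 4, and 0 in the other 3 libraries. In Lin-Kit+ cells it had 0 to 17. The 6 WT libraries had 0 upstream of 19 reads and the 6 KO libraries 6 of 57, in 4 of the KO libraries. KO control hairpin cells had 0 of 17 and 1 of 12, KO sh1 cells 1 of 7 and 1 of 15, and KO sh10 cells 3 of 6 in experiment 1 and no read in experiment 2. These libraries were too low for a test of site use.

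The third first exon of Rad51b took 54.1% ± 9.96 (SD, n = 3) of the reads of the 3 first exons in WT CMP, 42.7% ± 12.7 in WT GMP and 47.2% ± 13.5 in WT MEP. In KO cells it took 46.3% ± 10.2, 55% ± 13.1 and 50.9% ± 10.4. Groups overlapped, and this share was not tested.

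No member was called between genotypes or hairpins in its level, the spliced reads at the shorter intron. In edgeR's quasi-likelihood test over all introns, 8 members passed the filter on low counts in progenitors, 6 in MEF, 6 in Lin-Kit+ cells and 7 in the WT libraries of MEF and progenitors. Both Stard6 pairs have the same counts and are counted separately. Between KO and WT, 0 of 8 members were called in CMP and in GMP, beside 0.0116% and 0.00696% of all introns, and 1 in each had an unadjusted p below 0.05. Among all 129332 introns tested by edgeR, 8871 in CMP and 2660 in GMP had an unadjusted p below 0.05. In MEP, where Serpina3f had no read in any library, 0 of the other 7 were called, beside 0.0101% of all introns, and 0 had an unadjusted p below 0.05. In MEF 0 of 6 were called beside 0.00606% of introns, and 0 had an unadjusted p below 0.05. In the 5 comparisons of genotype and hairpin in Lin-Kit+ cells 0 of 6 were called, beside 0% of introns. In edgeR without the experiment as a block, 0 had an unadjusted p below 0.05. With the block none was called either, and the lowest edgeR adjusted p was 0.0632. For hairpins against control, the unadjusted edgeR p with the block was 0.00252 in WT and 0.0153 in KO cells for Serpina3f. It was 0.0131 for Tcn2 in WT and 0.0362 for Abi1 in KO cells. For sh1 against sh10 it was 0.0157 for Tcn2 and 0.0374 for both Stard6 pairs. The other unadjusted p were above 0.05. The share of all introns called with the block is not given here.

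Abi1 had the smallest errors of the members in CMP, GMP and MEP. Its log2 fold change, KO against WT, was 0.01 (SE 0.12) in CMP, -0.09 (SE 0.12) in GMP, -0.17 (SE 0.12) in MEP and -0.17 (SE 0.13) in MEF, with adjusted p of 0.998 in CMP and 1 elsewhere. For Tcn2 the values were 0.01 (SE 0.25), -0.04 (SE 0.23), 0.13 (SE 0.36) and 0.24 (SE 0.24). Tcn2 had 107, 121 and 113 reads in KO CMP and 159, 218 and 89 in WT CMP, which is 2.39 ± 0.03 and 2.34 ± 0.98 CPM (SD, n = 3).

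Pnck in CMP had 30, 11 and 22 reads in KO and 7, 5 and 7 in WT libraries, without overlap. Its log2 fold change of 2.19 (SE 0.80) had an edgeR p of 0.0118 and an adjusted p of 0.641. In GMP it went the other way, with 1 read in each KO library against 2, 10 and 3 in WT (log2 fold change -2.54, SE 1.01, edgeR adjusted p = 1). Neither was called, and the difference between both cell types was not tested. For the lack of overlap in CMP, the share over all introns is not given here.

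Cell types differed in the level of some members. Tcn2 was highest among WT progenitors in GMP, at 6.14 ± 0.53 CPM (SD, n = 3), lower in CMP at 2.34 ± 0.98 and lowest in MEP at 0.27 ± 0.12. The types did not overlap in Tcn2, and the share of all introns without overlap is not given here. Its log2 fold change of GMP against CMP was 1.52 (SE 0.24, edgeR adjusted p = 6.3e-05), and Tcn2 was the only called member of 8, beside 18.7% of all introns. MEP was below CMP by 2.98 (log2 fold change -2.98, SE 0.30, edgeR adjusted p = 1.94e-08) and below GMP by 4.50 (log2 fold change -4.50, SE 0.30, edgeR adjusted p = 9.41e-12).

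Serpina3f was the other member called between progenitor types. It had 78, 66 and 22 reads in WT CMP, 32, 53 and 8 in WT GMP and 0 in all 6 MEP libraries. With 3 counts over the group as the floor, WT CMP was at least 54.9-fold and WT GMP at least 39-fold higher than WT MEP (edgeR adjusted p = 7.6e-06 and 1.32e-05). Thus 2 of 8 members were lower and 0 higher in MEP than in CMP, beside 45.1% of all introns called, and the same count held against GMP, beside 44.5%. Serpina3f passed the filter on low counts through CMP and GMP, where it was high, so that count is a description. In bulk RNA, fewer cells of a kind and less RNA per cell cannot be told apart.

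**Figure D4:**
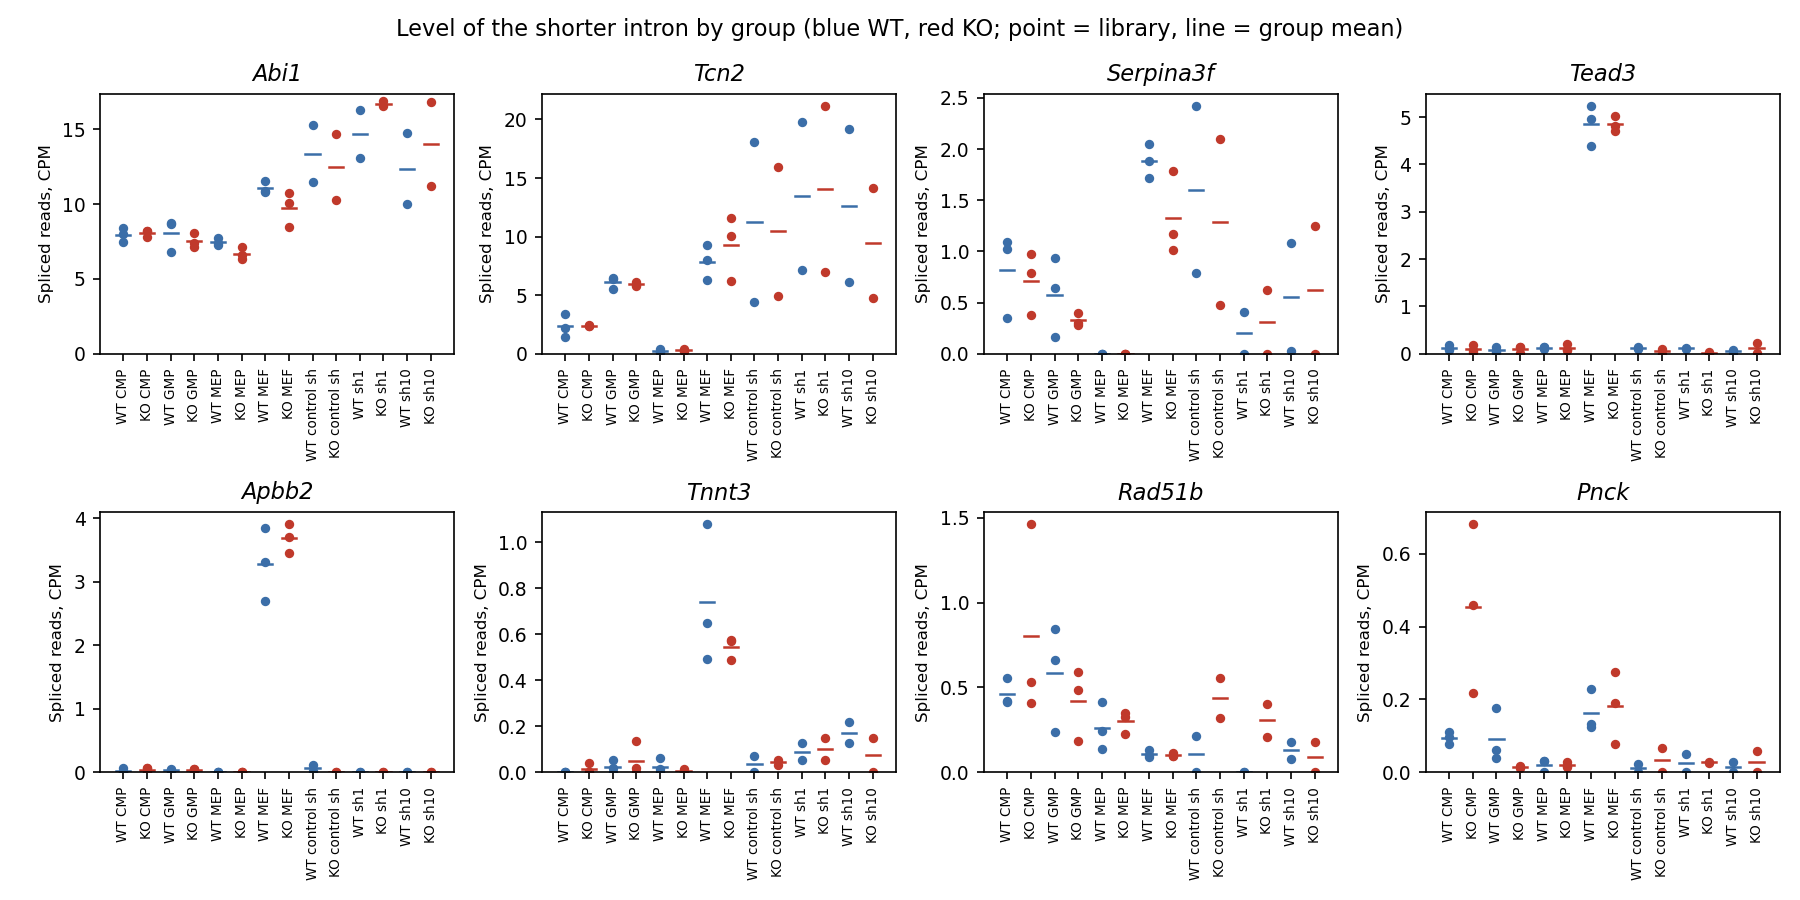
Spliced reads at the shorter intron in CPM (linear axes from 0, a scale per gene) for 8 members, by group. A point is a library, a line the group mean, blue WT and red KO. Tead3, Apbb2 and Tnnt3 have their high points in the 6 MEF libraries, Serpina3f is at 0 in the 6 MEP libraries, and the Tcn2 pairs of Lin-Kit+ points lie far apart.

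Between WT MEF and WT progenitors all 7 members that passed the filter were called, 6 higher and 1 lower, beside 72.4% of all introns. Apbb2, Tnnt3 and Tead3 passed only through MEF, where they were high, and Rad51b only through the progenitors, where it was high. That count is therefore a description. Only Tcn2, Serpina3f and Abi1 passed the filter in WT MEF and in WT progenitors taken separately. Apbb2 had 235, 129 and 151 reads in WT MEF against 0 to 4 in the 9 WT progenitor libraries (log2 fold change 8.32, SE 0.54, edgeR adjusted p = 1.23e-08). Tnnt3 had 30, 31 and 49 against 0 to 4 (6.12, SE 0.70, edgeR adjusted p = 3.51e-06), and Tead3 303, 210 and 238 against 2 to 13 (5.68, SE 0.25, edgeR adjusted p = 2.29e-11). None of these 3 overlapped between the cell types, which is a description too, since they passed the filter through MEF. The share of all introns without overlap is not given here.

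Serpina3f had 1.88 ± 0.17 CPM (SD, n = 3) in WT MEF, above each WT progenitor library (log2 fold change 4.41, SE 0.55, edgeR adjusted p = 8.7e-06). That size averages over MEP, where it was at 0, and the share of all introns above each progenitor library is not given here. Tcn2 was higher in MEF, with a log2 fold change of 2.51 (SE 0.21, edgeR adjusted p = 5.17e-08), at 7.87 ± 1.49 CPM, of which 1 library at 6.33 fell below 2 of the GMP libraries. Abi1 was higher by 0.68 (SE 0.10, edgeR adjusted p = 1.27e-05), at 11.1 ± 0.38 CPM against 7.47 to 8.06 in the means of the WT progenitors. Rad51b was lower in MEF (log2 fold change -1.72, SE 0.53, edgeR adjusted p = 0.00828), with 4 to 8 reads per library against 9 to 48. It passed the filter on low counts only through the progenitors, so this call is a description. MEF and progenitors were prepared with the same kit but from other animals. Cell type, embryo against mouse, and culture against sorting cannot be told apart.

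In Lin-Kit+ cells the spread between the experiments was wide. Serpina3f in experiments 1 and 2 had 105 and 33 reads in WT control cells, 64 and 18 in KO control cells, 40 and 1 with sh10 and 16 and 0 with sh1 in WT cells, and 42 and 0 with sh10 and 21 and 0 with sh1 in KO cells. It was higher in experiment 1 in all 6 groups, opposite to Tcn2. In CPM, all 8 libraries with a hairpin against Zrsr1 were below the control of their own experiment and genotype. For Tcn2 and for Abi1, 2 of 8 were below it. Each control serves both hairpins, so these are not 8 separate comparisons, and the share over all introns is not given here. For Serpina3f the log2 fold change of hairpins against control was -2.19 (SE 1.66, edgeR adjusted p = 1) in WT and -1.54 (SE 1.67, edgeR adjusted p = 0.996) in KO cells. With the experiment as a block it was -3.40 (SE 0.98, edgeR adjusted p = 0.0632) in WT and -2.60 (SE 0.97, edgeR adjusted p = 0.163) in KO cells. Neither was called, and the part of the neutrophil and GMP markers in this difference was not tested. Abi1 had 0.14 (SE 0.39) and 0.39 (SE 0.40), and Tcn2 0.35 (SE 0.91) and 0.25 (SE 0.91), with edgeR adjusted p of 0.996 to 1 without the block. With it, Abi1 had 0.13 (SE 0.18) and 0.40 (SE 0.18) and Tcn2 0.45 (SE 0.17) and 0.26 (SE 0.17), with edgeR adjusted p of 0.816, 0.253, 0.161 and 0.467.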

How the data were processed

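For each of 219945 introns the deposited tables give read counts at both exon-intron boundaries (A1, A2) and counts of spliced reads (Exon), per the file headers. The authors' tables also give a covered fraction, not used here, and a percent, which equals 100 × (A1 + A2) / (A1 + A2 + 2 × Exon) in 7918020 of 7918020 values within 0.001. The submitters' processing notes name mm10 as the build. An aligner or counter is not given in the sources used here. Libraries were polyA-selected, per the labels' protocols with TruSeq (progenitors, MEF) or NEBNext Ultra (Lin-Kit+) kits. All introns matched GENCODE M21. A longer intron never had more reads than the shorter (0 of 353412 values), and no pair of libraries held identical counts.

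Site use and levels were tested with edgeR 4.0.16 (quasi-likelihood, Benjamini-Hochberg, threshold 0.05) in R 4.3.3, after tests on simulated data, with limma 3.58.1 and DESeq2 1.42.0 as alternatives. Levels used all introns, TMM and filterByExpr, with 1 coefficient per group. As planned, the test of use held 1 pair, so all 9817 pairs next in length at a shared 3′ end were offered to it, and Rad51b was admitted with 20 reads per group in place of 20 per library. These changes, the fit of Tcn2 alone, and the test of levels with its alternatives were added after seeing the data. Members, lists and the comparisons were chosen with earlier results of these data known. By rule, the pairs named are all members. CPM scales counts to 1000000 spliced counts of a library. Intervals are Clopper-Pearson. In progenitors, libraries of 1 genotype and number are 1 mouse. Lin-Kit+ libraries share an experiment by their labels (correlations of deviations 0.413 to 0.496). KO and WT of 1 number correlated over 0.1 in every pair only in MEP (0.107 to 0.163), which counts as paired there. The main fits leave these pairings out, and p-values come from fits without a block unless a block is named.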

Additional observations from a re-analysis of the deposited data

How the results depend on the processing

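Alternative values, 105 for site use and 282 for levels, came from leaving out a library or changing the test, filter, scaling, samples or block. Of these, 99 and 281 counted as the same. For a single pair or member, this means the same direction and side of the threshold. For a count of called members it means an equal or close count, such as 7 to 9 between WT MEF and WT progenitors. Alternatives in which a pair or member had no value are not included. For Tcn2 in Lin-Kit+ cells, fitted as this pair alone, KO against WT control and hairpins against control in WT passed the threshold (edgeR adjusted p of 0.0288 and 0.0206). The pair was admitted through its reads in WT control cells, and this fit was added after seeing the data. Both values are therefore a description. The log2 odds ratio of upstream use was 5.43 in both comparisons. It is a fitted value against groups with 0 downstream reads that depends on the prior count and is no bound. With libraries left out the adjusted p was 0.982 to 1. Without a WT control library fewer than 10 downstream reads remain, so no value could be fitted. For Rad51b the value for KO against WT in CMP reversed to -0.69 without KO CMP replicate 2 and to -0.64 without WT CMP replicate 2, and ran up to 0.83. For WT GMP against CMP it reversed to -0.81 without WT CMP replicate 2 and to -0.62 without WT GMP replicate 3, and ran up to 0.66. These were not called in any fit, with adjusted p of 0.898 to 1, and the cause was not tested. With only the groups of the comparison, 1 member in place of 2 was called between WT MEP and WT GMP in level, since Serpina3f did not pass the filter on low counts there.

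With the replicate block (experiment, mouse, or number within a cell type), the log2 odds ratio for Rad51b was 0.15 in CMP and 0.73 in GMP for KO against WT, and 0.32 for WT GMP against CMP. The block changed no call, also where a group was at 0 and no size is given. Fibroblasts and progenitors share no numbers, so no block was fitted between them. No other pair of 3 to 60 bases ends where Tcn2 and Rad51b do, so leaving out overlapping pairs changed neither. A minimum of 5% for the less used site left Tcn2 without a value, and a fit of only the groups compared did so for Rad51b in comparisons with MEP. Read numbers limit the results on site use, those of Tead3 and Apbb2 outside MEF included, and less so those of Abi1.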
